A study of Homo sapiens with 6 samples.

Results

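The loci described here are transcribed regions of the human breast cancer cell line MDA-MB-231 to which the deposited expression table gives no gene name. A transcript assembler had given each of them a number (MSTRG followed by digits), and the symbol column holds only a dash. Of 38792 such unnamed loci in a table of 66381 rows, 1130 (2.91%) reached at least 1 FPKM in at least 3 of 6 libraries and are described below. FPKM is a read level per length of the locus and per depth of the library. The loci were thus chosen by their measured FPKM in both groups, and their levels are given as a description.

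MDA-MB-231 is an established triple-negative line, which lacks the estrogen and progesterone receptors and ERBB2 amplification. The 3 mimic libraries (titled minic) came from cells transfected with a mimic, that is, a synthetic double-stranded RNA that imitates a microRNA, and the 3 control libraries (titled minic_nc) from control cells of the same line. All 6 were made from polyadenylated RNA of 1 cell line, and the labels say nothing about separate cultures, so p-values measure only the spread between these libraries. The microRNA miR-5001-5p, the cytokine TNF-α and the kinases MNK2a and p38 appear in the title of the series. Library totals were 31643826 to 32363456 counts.

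Transcript assembly joins aligned reads into transcript models whether or not an annotated gene lies there. Loci left without a gene are known to include unannotated long noncoding RNAs, transcripts of repeats, RNA running past a gene's end, retained introns and repeated sequence such as ribosomal DNA. A microRNA guides Argonaute proteins to RNAs that pair with its seed, and such pairing can lower the target RNA, so unannotated transcripts can respond either directly or through the genes that the microRNA acts on. The sequence below is shown because it is the molecule the series title names; the labels give the sequence of neither transfected oligonucleotide. Capitals mark the seed, bases 2 to 8 from the 5′ end, and the sequence is RefSeq's on GRCh38.p14, chr2:232550530-232550553, minus strand, 24 bases.
hsa-miR-5001-5p: aGGGCUGGacucagcggcggagcu

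The table gives no position for an unnamed locus, so no sequence of any of them could be read from the genome and no match to the seed was searched. Their numbers did carry an order along the genome. Among the 3102 assembled loci that do name genes, 99.0% of 3101 neighbouring pairs by number lay on the same chromosome, and within each of 23 chromosomes the number and the start position had a Spearman correlation of 0.997 to 1.00 across loci. The local order was looser: the start position rose with the number in 85.9% of neighbouring pairs on the same chromosome. On this basis 994 members fell by number between named loci of a single chromosome, and 136 did not. These named neighbours, with GRCh38 coordinates from the table, are given below as brackets. A bracket is a stretch within which a locus is likely to lie by its number and says nothing of which gene, exon, intron or strand it belongs to. Whether the libraries kept strand is not given in the sources used here. Reads of a locus and of a gene on its other strand therefore could not be told apart.

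The unnamed loci were shorter, weaker and more variable than annotated genes. Their median length was 1688 bases, against 5205 bases for the 10429 rows that name 1 gene and met the same FPKM rule. Their median level per length was 1.48 FPKM and their median count 96.8, against 6.51 FPKM and 1204 counts for those rows. The median coefficient of variation within a group of 3 libraries was 20.8% for the loci and 8.46% for rows naming 1 gene. Lengths ran from 200 bases in MSTRG.16726 to 57792 bases in MSTRG.3711, and 62 loci had a mean of at least 10 FPKM. The 1130 loci took 1.80 ± 0.0545% of counts in mimic libraries and 1.77 ± 0.0694% in control libraries (SD, n = 3 each; exact two-sided permutation p = 0.9). The smallest p that 3 against 3 libraries can give is 0.1. The 37662 unnamed loci below the FPKM rule took 0.731, 0.640 and 0.668% of counts in mimic libraries and 0.800, 0.847 and 0.779% in control libraries. There the groups did not overlap (exact two-sided permutation p = 0.1), with the mimic libraries lower.

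Of the 1130 loci, 110 differed between mimic and control in edgeR's quasi-likelihood test, 60 higher and 50 lower in mimic libraries (Benjamini-Hochberg adjusted p under 0.05 over all 12390 rows tested). This is 9.73% of the loci, against 20.4% of all rows tested and 21.5% of rows that name a gene. By direction, 5.31% of the loci were higher and 4.42% lower, while 12.6% of all rows were higher and 7.87% lower. At 2-fold or more, 12 loci were higher and 10 lower (1.06% and 0.885%), against 1.32% and 0.355% of all rows. Of these loci, 5 higher and 5 lower met the FPKM rule through 1 group only and so had to differ. The shares at 2-fold are therefore given as a description. Without regard to the test, the FPKM of the groups did not overlap in 111 loci with mimic libraries higher (9.82%) and in 210 with them lower (18.6%), against 15.6% and 28.7% of all rows. Among them, 16 of the 111 and 42 of the 210 met the FPKM rule through 1 group only and so could not overlap. These counts too are given as a description. The median log2 fold change, mimic minus control, was -0.02 for the loci and -0.01 for all rows. Scaling to library totals alone shifted the median of all rows to -0.09 and turned the split to 44 higher and 76 lower, and limma on log2(FPKM + 1) gave 51 higher and 83 lower. Leaving out single libraries gave 76, 73 and 84 calls without mimic libraries 1, 2 and 3 and 60, 62 and 60 without control libraries 1, 2 and 3. In bulk RNA, fewer cells that express a locus and less of its RNA per cell cannot be told apart.

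**Figure D1:**
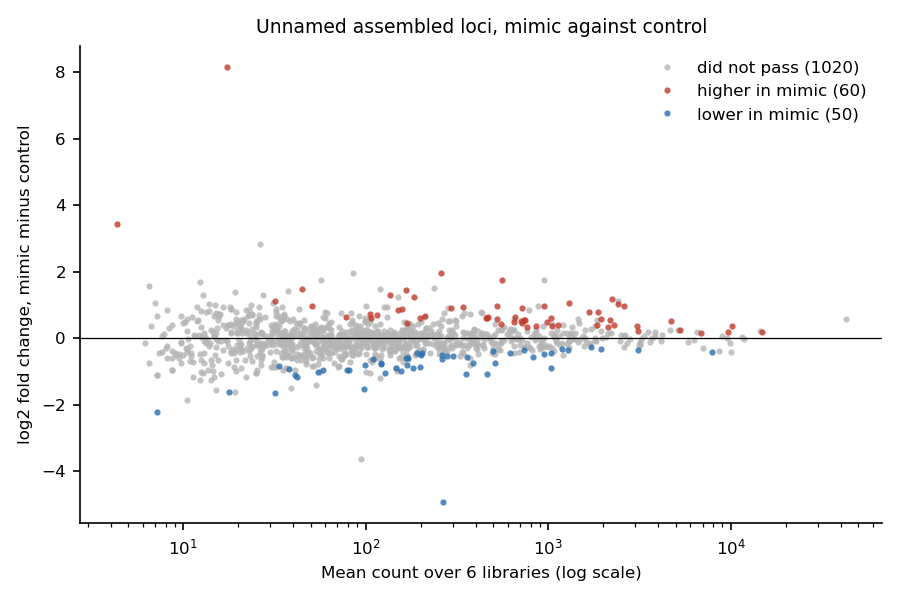
Each point is 1 of the 1130 unnamed loci, with its mean count over 6 libraries on a log axis and its log2 fold change, mimic minus control. The 60 loci higher in mimic libraries (red) and the 50 lower (blue) passed edgeR's test, and the cloud of loci that did not pass widens toward low counts.

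The share of loci called followed their abundance, and at matched counts up to 3000 it lay near that of annotated genes. Among loci with a mean count up to 50, 11 of 372 passed (2.96%), against 13 of 478 named rows (2.72%). Between 300 and 1000 counts the shares were 18.9% of 159 loci and 17.6% of 3055 named rows. Between 1000 and 3000 counts they were 24.1% and 23.9%, and above 3000 counts 10 of 38 loci passed (26.3%), against 830 of 2590 named rows. The lower share over all loci thus went with their lower counts: 372 of the 1130 loci had a mean count of at most 50. The 60 loci that rose had a median fold of 1.53 and a median count of 710, and the 50 that fell a median fold of 1.66 and a median count of 200.

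**Figure D2:**
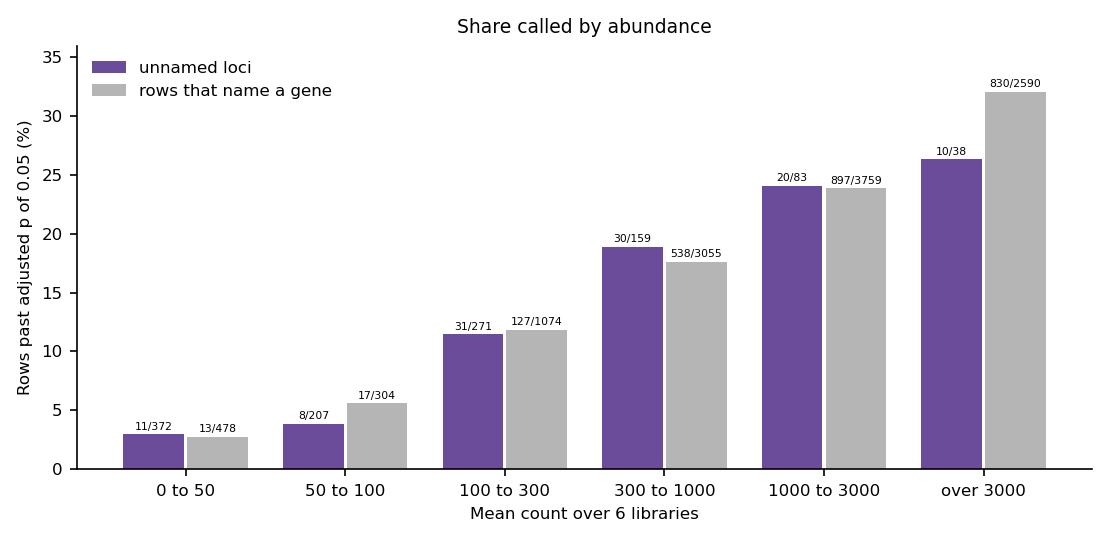
Percent of rows past an adjusted p of 0.05 in bins of mean count, for unnamed loci (purple) and rows that name a gene (grey); the numbers over the bars are rows called over rows tested. Both shares climb with the count, and they lie within 2 percentage points of each other in every bin below 3000 counts.

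Which loci rose can be seen in the 15 higher loci with the largest changes, 12 of which passed in all 6 fits that left out a library. MSTRG.51703, a 634-base locus, had the highest level per length of these 15. It had 845, 910 and 796 counts in mimic libraries and 264, 309 and 232 in control libraries. Every mimic library was far above every control library, and the groups did not overlap. Per length this was 41.9 ± 3.02 FPKM in mimic libraries and 13.2 ± 1.82 FPKM in control libraries (SD, n = 3 each), a log2 fold change of 1.75 ± 0.13 (edgeR, SE; adjusted p = 0.000267). It stayed called in each of 22 other fits. Its number lies between RNU6-1330P/NSA2 and S100Z, chr5:74766991-76921650, where 6 of 11 named rows tested rose and 0 fell. Among those 6 was AC113404.3, an annotated locus with only a clone-based name, which rose by a log2 fold change of 1.55 ± 0.21 (adjusted p = 0.00316). F2RL1, a protease-activated receptor, and POLK, a translesion DNA polymerase, were also among the 6. Whether the locus shares reads with any of these rows was not tested. In this bracket 54.5% of the named rows rose, against 12.6% of all rows tested higher and 7.87% lower. The counts for the brackets below stand beside those same shares over all rows. Named rows singled out here and in the brackets below were picked out after their values were seen.

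MSTRG.66465 and MSTRG.66440 share a bracket on chromosome 9, between AKAP2, an anchoring protein of protein kinase A, and AL445187.1 (chr9:110048598-112582590). MSTRG.66465 had 467, 364 and 391 counts in mimic libraries, against 124, 120 and 86 in control libraries. It met the FPKM rule through the mimic libraries alone and so had to differ, and its log2 fold change of 1.97 ± 0.18 (edgeR, SE) is given as a description. MSTRG.66440, 13122 bases long, had 2741, 3548 and 3207 counts in mimic libraries, against 1843, 1532 and 1517 in control libraries. Its log2 fold change was 1.04 ± 0.12 (edgeR adjusted p = 0.00187). MSTRG.66440 reached 1 FPKM in both groups and stayed called in all 22 other fits. Of 8 named rows tested in the bracket, 2 rose and 0 fell, AKAP2 itself by a log2 fold change of 0.60.

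The other abundant loci among the largest rises were 3 with well over 1000 counts in each mimic library. MSTRG.51398 (8666 bases, between GPBP1 and ERCC8/GNL3LP1 on chromosome 5) had 2998, 3336 and 2786 counts in mimic libraries, against 1543, 1380 and 1341 in control libraries. MSTRG.4964 (9926 bases, between GLRX2 and AC096677.2/PHLDA3 on chromosome 1) had 3438, 3499 and 3233 counts in mimic libraries, against 1747, 1951 and 1799 in control libraries. MSTRG.57024 (3243 bases, between GOPC/AL132671.2/ROS1 and PKIB/Z99129.3 on chromosome 6) had 1928, 1490 and 1784 counts in mimic libraries, against 926, 888 and 813 in control libraries. In all 3 the lowest mimic library was well above the highest control library. Their log2 fold changes were 1.18 ± 0.09, 0.97 ± 0.07 and 1.07 ± 0.10 (edgeR adjusted p = 0.000359, 0.000265 and 0.000837), and each stayed called in all 22 other fits. In the bracket of MSTRG.51398, PDE4D, a cAMP phosphodiesterase, and ELOVL7, a fatty acid elongase, rose while PLK2, a polo-like kinase, fell. ASPM, a spindle protein, and CAMSAP2, a microtubule minus-end protein, rose in the bracket of MSTRG.4964, and the other 10 rows there did not pass.

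Of the remaining higher loci, MSTRG.35063 had 472, 452 and 395 counts in mimic libraries, against 207, 282 and 231 in control libraries. MSTRG.54283 had 629, 734 and 667 counts in mimic libraries, against 401, 356 and 343 in control libraries. Neither pair of groups overlapped. Their log2 fold changes were 0.95 ± 0.15 and 0.97 ± 0.11 (edgeR adjusted p = 0.0061 and 0.0015). In their brackets, AAK1 to TIA1 on chromosome 2 and LINC01600 to NQO2 on chromosome 6, none of the 6 and none of the 4 named rows tested passed in either direction. MSTRG.56413, MSTRG.3498 and MSTRG.3623 had log2 fold changes of 1.30, 0.98 and 0.90 and also passed in each fit without a library. MSTRG.26910 lost its call without mimic library 2 (edgeR adjusted p = 0.0591), and MSTRG.41374 without control library 2 (adjusted p = 0.0532). MSTRG.45013 lost it in 4 of the 6 such fits, those without mimic library 1 or 3 and those without control library 2 or 3, with a highest adjusted p of 0.0794.

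MSTRG.32206 was the sole member listed at 0 in all 3 libraries of a group. This 362-base locus had 60, 26 and 18 counts in mimic libraries and 0, 0 and 0 in control libraries. It met the FPKM rule through the mimic libraries alone and so had to differ. As a description, its mean was at least 11.6-fold higher in mimic libraries, taking 3 counts per control library as the limit that a count of 0 allows, for counting error only. The mean rests largely on mimic library 1, and the mimic library with the lowest level was at least 5.97-fold higher. Its number lies between C19orf54 and CYP2G1P/RAB4B-EGLN2/RAB4B/EGLN2/AC008537.1 on chromosome 19, where 2 of the 4 named rows tested fell and 0 rose.

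**Figure D3:**
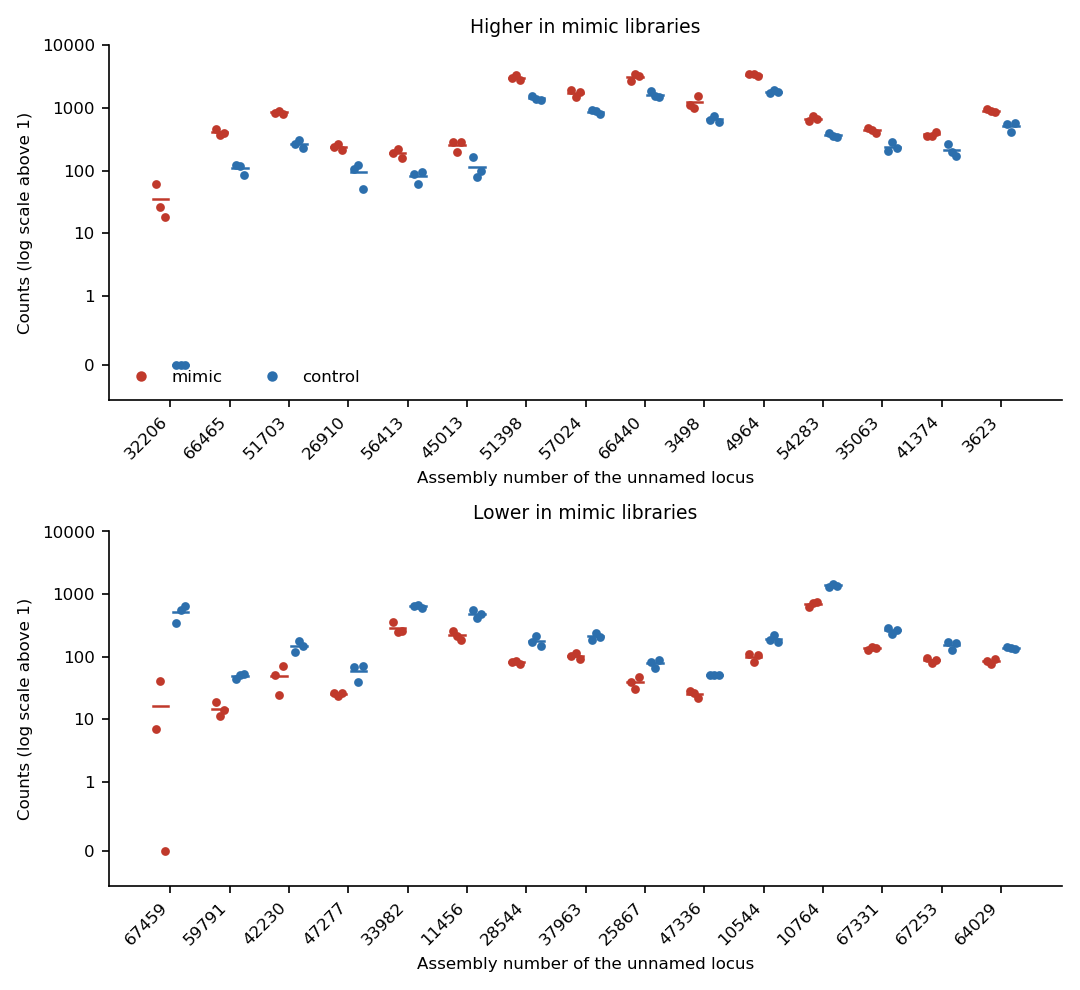
Counts of the 15 higher and 15 lower loci with the largest changes, on an axis that is logarithmic above 1; points are libraries (mimic red and left, control blue and right) and bars are group means. The loci were chosen for groups that do not overlap, and the panels show how widely the replicates spread around the group means.

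Among the 15 lower loci with the largest changes, 8 passed in all 6 fits that left out a library. MSTRG.10764, 8044 bases long and the most abundant of the 15 by counts, had 611, 731 and 753 counts in mimic libraries, against 1316, 1437 and 1361 in control libraries. Every control library was above every mimic library by more than 500 counts. Per length it had 2.71 ± 0.297 FPKM in mimic libraries and 5.32 ± 0.253 FPKM in control libraries (SD, n = 3 each), a log2 fold change of -0.89 ± 0.10 (edgeR adjusted p = 0.00178), and it was called in all 22 other fits. Its bracket on chromosome 11, CTNND1 to PTGDR2/AP000777.3, held 10 named rows tested, 2 that rose and 1 that fell. The row that fell was FAM111A-DT, a divergent transcript of the protease gene FAM111A, with a log2 fold change of -0.71 ± 0.14 (adjusted p = 0.0138).

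MSTRG.33982 had 359, 246 and 253 counts in mimic libraries and 651, 663 and 595 in control libraries, with a log2 fold change of -1.07 ± 0.16 (edgeR adjusted p = 0.00445). MSTRG.11456 had 260, 216 and 182 counts in mimic libraries and 556, 414 and 487 in control libraries, with a log2 fold change of -1.07 ± 0.17 (adjusted p = 0.0066). In both loci every mimic library was below every control library, and both were called in all 22 other fits. In the bracket of MSTRG.33982, GPN1/ZNF512 to AC093690.1 on chromosome 2, none of the 4 named rows tested passed.

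MSTRG.37963 had 102, 112 and 91 counts in mimic libraries, against 186, 240 and 208 in control libraries (log2 fold change -0.97 ± 0.16, edgeR adjusted p = 0.00811). Its bracket, MREG/PECR to AC069155.1 on chromosome 2, held 5 named rows tested, of which 0 rose and 2 fell. Their log2 fold changes ran from -1.35 to 0.59. The long noncoding LINC01963 fell by 1.13 and AC012513.3 by 1.35 on the log2 scale. XRCC5, the Ku80 subunit of DNA end joining, had a log2 fold change of 0.01. MSTRG.28544 had 82, 85 and 75 counts in mimic libraries, against 168, 213 and 146 in control libraries (log2 fold change -1.04 ± 0.18, edgeR adjusted p = 0.00975). Of 14 named rows tested in its bracket, AC127496.2 to OXLD1/PDE6G on chromosome 17, AC110285.2 alone passed, with a log2 fold change of -1.43. That is 7.14% of the rows in the bracket lower, against 7.87% of all rows tested. These neighbours were picked out after their values were seen.

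MSTRG.59791 had 19, 11 and 14 counts in mimic libraries, against 44, 50 and 52 in control libraries, and met the FPKM rule through the control libraries alone, so that it had to differ (log2 fold change -1.64 ± 0.27, edgeR, SE). MSTRG.67331 had 126, 141 and 138 counts in mimic libraries, against 291, 230 and 262 in control libraries (log2 fold change -0.87 ± 0.14, edgeR adjusted p = 0.00712), and it was called in all 22 other fits. The calls of MSTRG.42230, MSTRG.47277, MSTRG.25867, MSTRG.47336, MSTRG.67253, MSTRG.64029 and MSTRG.10544 were lost in 1 to 5 of the 6 fits without a library, with highest adjusted p of 0.0513 to 0.109. Among those 6 fits, MSTRG.10544 lost its call in the one without control library 2. MSTRG.47277, like MSTRG.59791, met the FPKM rule through the control libraries alone and so had to differ.

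The largest fall was that of MSTRG.67459, a 454-base locus with 7, 41 and 0 counts in mimic libraries and 339, 564 and 633 in control libraries. The groups stood far apart, at 1.10 ± 1.52 FPKM in mimic libraries and 35.3 ± 10.9 FPKM in control libraries (SD, n = 3 each). The log2 fold change was -4.91 ± 0.85 (edgeR adjusted p = 0.0089). It kept its call without each single library and lost it when unnamed loci were fitted alone. It lies by number between EHMT1 and the mitochondrial genome. MSTRG.67462, also numbered there, had 204, 231 and 618 counts in mimic libraries and 286, 807 and 269 in control libraries. MSTRG.67408 and MSTRG.67394, numbered before EHMT1, had 0 counts in libraries of both groups.

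Some loci met the FPKM rule through only 1 group and so had to differ. In 16 loci all 3 mimic libraries and no control library reached 1 FPKM, and 7 of these were called. In 42 loci all 3 control libraries and no mimic library did, and 16 were called. Without these 58 loci, 1072 remained, with 87 called, 53 higher and 34 lower. Of the 560 loci at 1 FPKM or more in all 6 libraries, 70 were called. For comparison, 110 of the 1130 loci (9.73%) and 2532 of all 12390 rows tested (20.4%) were called. Called mimic-side loci with few counts were MSTRG.33067 (67, 63 and 65 counts in mimic libraries, against 23, 22 and 28 in control libraries), MSTRG.21980 (38, 53 and 38, against 20, 25 and 17) and MSTRG.57191 (7, 7 and 10, against 0, 1 and 1). MSTRG.57191 rests on very few counts. It kept its call without each single library, lost it with no filter on low values (edgeR adjusted p = 0.322) and when unnamed loci were fitted alone (adjusted p = 0.0630), and had no adjusted p from DESeq2. MSTRG.21980 lost its call without mimic library 2, control library 1 or control library 3. The long loci MSTRG.42063 (31167 bases) and MSTRG.65446 (15133 bases) were also called, and both met the FPKM rule through the mimic libraries alone. They lay close to the threshold in both groups, and their rises of 0.36 and 0.61 on the log2 scale are given as a description. MSTRG.65446 lost its call without mimic library 2 or control library 3 (highest adjusted p = 0.0510), and limma on log2 FPKM called neither.

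The 16 called control-side loci had to differ, and their log2 fold changes, -2.22 in MSTRG.19834 to -0.43 in MSTRG.29527, are given as a description. MSTRG.19834 had 2, 4 and 1 counts in mimic libraries and 13, 10 and 13 in control libraries, the fewest of the 16. MSTRG.55870, 28949 bases long, was the most abundant of them, with 742, 739 and 818 counts in mimic libraries, against 1154, 1115 and 1096 in control libraries (log2 fold change -0.47 ± 0.07, edgeR, SE). Its number lies between RF00100/RN7SK, the row of the 7SK small nuclear RNA, and FBXO9/RN7SL244P on chromosome 6. The calls of MSTRG.26205, MSTRG.29527 and MSTRG.67328 were lost in each of the 6 fits without a library.

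None of the 10 loci with the highest FPKM passed edgeR's test, and several of them varied widely between libraries of 1 group. MSTRG.67407 had 29034, 59124 and 60795 counts in mimic libraries and 26738, 47025 and 32296 in control libraries. Its groups overlapped, at 297 ± 107 FPKM in mimic libraries and 211 ± 62.6 FPKM in control libraries (SD, n = 3 each; log2 fold change 0.57 ± 0.32, edgeR adjusted p = 0.258). This single locus held the highest count and the highest FPKM of all members, and the 10 loci with the highest counts held 25.2% of all member counts. MSTRG.67334, the second by FPKM, had 5429, 6382 and 10006 counts in mimic libraries and 7488, 15330 and 6960 in control libraries (adjusted p = 0.514).

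These 2 loci belong to 17 members numbered between AC011043.1 on the unplaced scaffold GL000195.1 and the mitochondrial genome, which held 11.3% of member counts. Another 6 members, numbered between FP565260.1 and CR381670.1 on the short arm of chromosome 21 (chr21:5130871-8880976), held 3.59%. A named locus of EHMT1, placed on chromosome 9, also falls in the scaffold range. Short arms of acrocentric chromosomes and unplaced scaffolds are known to carry ribosomal DNA, and the table places 5.8S ribosomal RNA rows (RNA5-8SN1, RNA5-8SN2, RNA5-8SN5 and RNA5-8S4) on scaffolds GL000220.1 and KI270733.1. Of these 23 loci, 0 rose and 3 fell (MSTRG.67331, MSTRG.67459 and MSTRG.67328), against 12.6% of all rows tested higher and 7.87% lower. MSTRG.67328 met the FPKM rule through the control libraries alone and so had to differ. Its call was lost in each of the 6 fits without a library. The scaffold loci took 0.138, 0.252 and 0.268% of all counts in mimic libraries and 0.142, 0.249 and 0.161% in control libraries, so the groups overlapped. The chromosome 21 loci took 0.0452, 0.0517 and 0.0679% in mimic libraries and 0.0712, 0.0735 and 0.0747% in control libraries, all 3 mimic libraries below all 3 control libraries (exact two-sided permutation p = 0.1, the smallest possible here).

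Which library was highest differed between the loci of these ranges. By counts, mimic library 3 was the highest mimic library in 11 of the 23 loci, mimic library 2 in 8 and mimic library 1 in 4. Control library 2 was the highest control library in 14, control library 1 in 6 and control library 3 in 3. Mimic library 3 and control library 2 were both highest in 7 of the 23, among them MSTRG.67407, MSTRG.67334, MSTRG.40397 and MSTRG.40394. MSTRG.40397 had 687, 841 and 1376 counts in mimic libraries and 1068, 2195 and 1039 in control libraries. MSTRG.40394 had 5263, 5958 and 7176 in mimic libraries and 6545, 10436 and 6683 in control libraries. The named row FP236383.3, which lies in the chromosome 21 range, had 4680, 5185 and 10286 counts in mimic libraries and 5576, 16448 and 5578 in control libraries. The same 2 libraries were also highest for MALAT1, an abundant noncoding RNA kept in the nucleus, with 2038, 1510 and 2890 counts in mimic libraries and 1135, 2624 and 694 in control libraries. Other RNAs listed as kept in the nucleus (PVT1, OIP5-AS1, FTX, MEG3, KCNQ1OT1 and NORAD) were not highest in both of these libraries. PVT1 had 998, 1022 and 1044 counts in mimic libraries and 929, 789 and 953 in control libraries. NORAD had 21211, 21111 and 20163 in mimic libraries and 20435, 20889 and 19795 in control libraries. For RNA5-8SN1 the counts were low, 11, 11 and 24 in mimic libraries and 20, 34 and 21 in control libraries. In the other 16 loci this order did not hold. MSTRG.40442, for example, had 6034, 9033 and 10082 counts in mimic libraries and 12538, 9651 and 12988 in control libraries. These rows were set side by side after their values were seen, and what the libraries share was not tested.

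**Figure D4:**
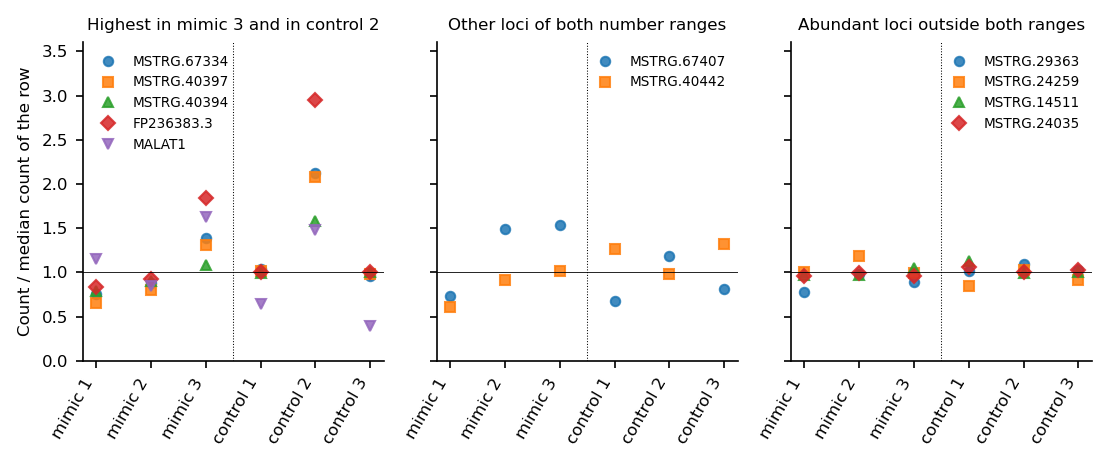
Count of each row divided by its own median over the 6 libraries, with mimic libraries left of the dotted line and control libraries right. The rows of the left panel were chosen after their values were seen and are highest in mimic 3 and in control 2 of their groups. The middle panel holds other loci of the scaffold and chromosome 21 ranges, of which MSTRG.67407 has that order too. The loci of the right panel, some of the abundant loci outside both ranges, stay near 1 in all 6 libraries. MSTRG.69201 and MSTRG.3886, also outside both ranges and more variable, are not shown.

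Several abundant loci outside both ranges had smaller differences between replicates, but not all did. MSTRG.69201 had a coefficient of variation within a group of 19.0%, near the 20.8% of MSTRG.40442 in the chromosome 21 range. MSTRG.3886 had 732, 0 and 551 counts in mimic libraries and 207, 263 and 313 in control libraries. MSTRG.24035, 18004 bases long, had 11278, 11804 and 11384 counts in mimic libraries and 12497, 11815 and 12170 in control libraries, and its log2 fold change was -0.00 ± 0.05 after TMM scaling (edgeR adjusted p = 0.989). MSTRG.14511 had 9039, 9080 and 9826 counts in mimic libraries and 10488, 9306 and 9318 in control libraries (log2 fold change 0.02 ± 0.06, adjusted p = 0.834). MSTRG.29363, the third by FPKM, had 77.9, 98.9 and 88.7 FPKM in mimic libraries and 100.9, 109.7 and 104.3 FPKM in control libraries (adjusted p = 0.282). None of MSTRG.24035, MSTRG.14511 and MSTRG.29363 passed, though the FPKM of MSTRG.29363 did not overlap between the groups, with all 3 mimic libraries lower. Small rises passed in MSTRG.40318, with 15826, 15041 and 15278 counts in mimic libraries against 14307, 14386 and 14033 in control libraries (log2 fold change 0.19 ± 0.04, adjusted p = 0.013). MSTRG.4070 and MSTRG.53382 also passed, with log2 fold changes of 0.20 ± 0.05 and 0.38 ± 0.09 (adjusted p = 0.029 and 0.0262). These 3 small rises were lost in 2, 5 and 4 of the 6 fits without a library, at an adjusted p of at most 0.0909, and all 3 were lost with library totals in place of TMM.

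A feature of the unnamed loci was an all-or-nothing count in single libraries. In 21 loci (1.86%) at least 1 library had at most 20 counts while another had at least 200, against 7 of 11260 rows that name a gene. MSTRG.67408 had 0, 4494 and 5221 counts in mimic libraries and 4761, 0 and 0 in control libraries. MSTRG.40435 had 1715, 11 and 2353 counts in mimic libraries and 2125, 12 and 2153 in control libraries. In both loci the near-empty libraries fell in both groups, and the fitted changes carried standard errors of 2.24 and 1.57 on the log2 scale. The low libraries were in both groups in 7 of the 21 loci, in mimic libraries only in 6 and in control libraries only in 8, and in none of them were all 3 libraries of a group low. MSTRG.67459 was the single one of the 21 that passed. An alternative chosen after seeing the data left all 28 such rows out of the fit, the 21 loci and the 7 named rows. It called 113 of the unnamed loci left, 61 higher and 52 lower, in place of 110.

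Several of these loci had a partner with the next number, nearly the same length and the same counts. There were 9 pairs of consecutive numbers with lengths within 1% and equal counts, of at least 20, in at least 2 libraries, all of them pairs of unnamed loci, and 5 of the pairs were made of 2 members. MSTRG.29271 had 513, 570 and 510 counts in mimic libraries and 0, 488 and 505 in control libraries. MSTRG.29272, of the same 2637 bases, had 511, 570 and 510 in mimic libraries and 463, 0 and 505 in control libraries. The pair thus matched wherever neither was at 0, to within 2 counts, and each was at 0 in a different control library. MSTRG.42063 and MSTRG.42064 (31167 bases each) differed by at most 3 counts in 5 libraries, and in control library 3 they had 946 and 0. MSTRG.2805 equalled MSTRG.2804 at 324, 388 and 336 counts in mimic libraries, and had 0, 0 and 379 in control libraries where MSTRG.2804 had 374, 459 and 379.

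The sources used here do not say how reads were shared between overlapping loci. For MSTRG.42063 the bracket runs from AC003072.1/DUSP18 to RF01891/RF01892/RF01882/TUG1 on chromosome 22, next to the long noncoding RNA TUG1. Of the 11 members in such pairs, MSTRG.42063 alone was called, and 6 were among the 21 loci near 0 in some libraries. Whether the loci of a pair counted the same reads was not tested, so they are not taken as independent.

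**Figure D5:**
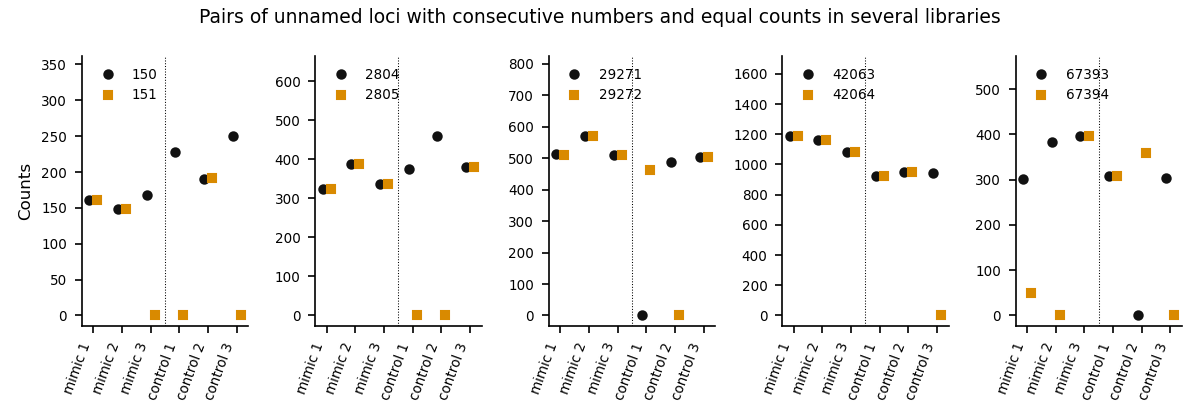
Counts per library of the 5 pairs of members with consecutive numbers, nearly equal lengths and equal counts in at least 2 libraries; circles are the first locus, squares the second, mimic libraries left of the dotted line and control libraries right. The symbols coincide in at least 2 libraries of each pair, and in each pair a locus is at 0 in some library.

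The fold changes of loci next to each other in number were weakly correlated. Of the 1130 loci, 135 (11.9%) stood in runs of consecutive numbers, 61 runs of 2, 3 of 3 and 1 of 4. Over the 70 consecutive pairs the median difference in log2 fold change was 0.32, with a Spearman correlation of 0.35 across pairs. Over 845 pairs of successive members more than 10 numbers apart it was 0.42, with a correlation of 0.02. Over the 135 cases in which a member stood beside a tested named locus it was 0.26, with a correlation of 0.23. All these pairs come from the same 6 libraries, and in none of the 70 consecutive pairs were both loci called. The run MSTRG.55086 to MSTRG.55089, numbered between HCP5/MICA and HLA-C/HLA-B in the major histocompatibility region of chromosome 6, held log2 fold changes of -0.14, 0.17, -0.17 and -0.50, none past the threshold. In the run MSTRG.18125 to MSTRG.18127, next to the pseudogene row DUXAP9/AL589743.8 on chromosome 14, MSTRG.18126 was called (log2 fold change -0.33 ± 0.08, edgeR adjusted p = 0.0319) and lost that call in 5 of the 6 fits without a library, all but the one without mimic library 1.

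Named rows inside the brackets were counted in the same way. The 54 bracketed loci that rose had 419 named rows tested in their brackets, of which 17.9% rose and 8.35% fell. The 39 that fell had 298, of which 10.7% rose and 11.7% fell. The 901 bracketed loci that did not pass had 4943 such rows, of which 13.7% rose and 8.17% fell. In brackets of at most 1000000 bases, 19.4% of 103 named rows fell around the 20 loci that fell, against 12.1% of 91 around the 20 loci that rose and 11.3% of 1805 around the 419 that did not pass. In those short brackets 9.89, 6.80 and 8.53% of named rows rose around loci that rose, fell and did not pass. These shares describe rows that can count for several brackets of different length, and no test was made of them.

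At the threshold of the FPKM rule, the locus just inside was MSTRG.55257, which had 1.001 FPKM in its library of rank 3 and 7, 2 and 5 counts in mimic libraries and 10, 10 and 5 in control libraries. Just outside was MSTRG.32723, with 0.998 FPKM and 33, 35 and 15 counts in mimic libraries and 22, 45 and 40 in control libraries. The next inside, MSTRG.56942 and MSTRG.52789, had 1.002 and 1.003 FPKM, and the next outside, MSTRG.46072 and MSTRG.63747, had 0.997 and 0.994 FPKM. Members near the threshold thus rest on few counts where they are short and on more where they are long.

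The labels were checked on named genes. MKNK2, the gene of the MNK2 kinase named in the series title, had 1031, 871 and 948 counts in mimic libraries and 1842, 1943 and 2617 in control libraries (log2 fold change -1.09 ± 0.15, edgeR adjusted p = 0.00361). Of 7 mesenchymal markers of such lines, 6 were tested and 5 rose, among them VIM, vimentin, at 553 FPKM in mimic libraries and 449 FPKM in control libraries. FN1, fibronectin, did not pass, and SPARC was under 1 FPKM in all 6 libraries. Of 6 luminal and epithelial markers in the table, 4 were tested and 1 rose, KRT18, a keratin, at 48.1 FPKM in mimic libraries and 34.7 FPKM in control libraries. CDH1 and EPCAM, epithelial adhesion proteins, were under 1 FPKM in all 6 libraries. The measured blood, fibroblast and endothelial markers (8 genes) were under 1 FPKM in all 6 libraries. The 3 mitochondrial rows took 1.31% of counts in mimic libraries and 1.52% in control libraries, the groups not overlapping, and the part of that difference in the results for unnamed loci was not tested.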

How the data were processed

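Per the labels, the 6 libraries hold polyadenylated RNA of MDA-MB-231 cells. Per the submitters' processing notes, cutadapt 1.9 and FastQC were used, with GRCh38 (hg38) as the genome. Not given in the sources used here: aligner, assembler, counting tool, annotation and strandedness. The deposited table holds the authors' unnormalized counts, seen as whole numbers with a different total per library, and their FPKM values, which equal those counts scaled by length and library total. Lengths were recovered from the deposited counts and FPKM.

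Members were rows with an MSTRG identifier, no symbol and at least 1 FPKM in at least 3 libraries; they and the lists were chosen with earlier results of these data known. All 12390 rows meeting that FPKM rule, named and unnamed, were fitted with edgeR 4.0.16 (glmQLFit, glmQLFTest, TMM, R 4.3.3; two-sided; Benjamini-Hochberg adjusted p under 0.05 over all rows). Unnamed loci held 2.46 to 2.70% of counts and stayed in library sizes, since they are the features studied. Each log2 fold change runs mimic minus control, and its SE was taken as its absolute value divided by √F. The test was checked on counts simulated with the spread of all rows tested. That check did not treat unnamed loci apart. Their common coefficient of variation was 34.4%, against 15.3% for all rows, so it does not speak for their calls.

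Loci named were the 15 higher and 15 lower with the largest fold among those called, without overlap and with at least 2 FPKM in the higher group, the 10 highest by FPKM and by count, those at the rule's threshold, runs of 3 or more, the longest and shortest, and called loci that met the rule in 1 group. Loci near 0 and equal pairs were chosen after their values were seen. No library was a copy of another of its group (chi-square over degrees of freedom of 26.3 or more). Same-numbered libraries did not deviate together. Alternatives used DESeq2 1.42.0 and limma 3.58.1; Python 3.11.15, pandas 2.3.3, scipy 1.17.1 and matplotlib 3.10.9 were used.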

Additional observations from a re-analysis of the deposited data

How the results depend on the processing

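Against 110 loci called (60 higher and 50 lower), the count of lower loci was 76 with library totals in place of TMM, 83, 77 and 77 with limma on log2(FPKM + 1), log2(FPKM + 0.5) and log2(FPKM + 0.1), and 24 when rows needed at least 10 counts in 3 libraries. Limma on log2(FPKM + 1) called 51 higher, so 38.1% of its calls were higher, against 54.5% in the edgeR test. At least 2 FPKM in 3 libraries left 391 loci, with 70 called, 26 of them lower. Unnamed loci fitted alone gave 34 calls, 23 higher and 11 lower; their common coefficient of variation was then 34.4%, against 15.3% for all rows. A replicate block gave 70 calls, 21 of them lower; the deviations of same-numbered libraries correlated at -0.060, 0.040 and -0.089, so the numbers are not taken to pair libraries. Leaving out each library gave 60 to 84 calls, 40 to 52 higher and 19 to 33 lower, with fewer samples in each fit. The difference in the share of counts, mimic minus control, was -0.105 percentage points over all unnamed loci and 0.0239 over the loci that met the FPKM rule (exact two-sided permutation p = 0.1 and 0.9). The smallest p possible is 0.1, and over all unnamed loci the groups did not overlap. Library totals and limma turned the balance of calls from mostly higher to mostly lower, and the median log2 fold change of the loci, -0.02, was 0.0041 with no filter and 0.0057 without control library 2. No named locus that was called changed sign in a fit that gave it an adjusted p. For named loci, 1529 alternative values kept their side of the threshold, 206 calls were lost, 21 were gained and 23 uncalled values moved by more than their SE. Of the 1130 loci, 372 had a mean count of at most 50, where 2.96% were called.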
